A study of Homo sapiens with 45 samples.

Results

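MDA-MB-453 is the luminal line among 15 wild-type human breast cancer cell lines whose RNA was profiled, and it is compared here with 7 basal A lines. These are BT-20, HCC1143, HCC1187, HCC1806, HCC1937, HCC70 and MDA-MB-468. The lines were picked by name, which gave 3 MDA-MB-453 libraries and 21 basal A libraries of 45 libraries in all. No line was treated, and the labels give all of them as wild-type epithelial breast cancer cells. The words luminal and basal A follow published subtyping of these lines, since the labels give no subtype. MDA-MB-453 was grown in L-15, as was MDA-MB-468. HCC1143, HCC1187, HCC1806, HCC1937 and HCC70 were grown in RPMI 1640 with added glutamine, and BT-20 in EMEM with glutamine and insulin. All media held fetal bovine serum, penicillin and streptomycin. L-15 contains galactose where most media have glucose. Outside MDA-MB-468, line and medium cannot be told apart. One line stands for the luminal side, so each difference is that of MDA-MB-453 from these 7 lines. Nothing in the labels tells whether the 3 libraries of one line came from separate cultures. P-values over libraries therefore measure only the variation among these libraries, and that may be technical.

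Luminal breast epithelium faces the duct, secretes, and carries the hormone receptors, and its identity depends on transcription factors such as FOXA1 and GATA3. Basal A lines share keratins, adhesion molecules and growth factor receptors with the outer, basal layer. MDA-MB-453 is widely used as a model of the molecular apocrine type of breast cancer, which lacks the estrogen receptor, responds to androgen and keeps ERBB2 signalling. Apocrine cells are those that line sweat and scent glands, and their secreted proteins mark this tumour type.

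The MDA-MB-453 libraries held 4930759, 5268086 and 6561309 counts, and the basal A libraries 4587650 to 14653677 (median 6896428). Short RNA genes took 1.73% to 4.4% of the MDA-MB-453 counts and 0.463% to 1.90% of the basal A counts, and protein-coding genes took 92.7% to 95.1% and 95.9% to 97.6% of them. Across genes, the MDA-MB-453 libraries correlated with each other at 0.974 to 0.984 (Pearson's r of log2 CPM). Their mean correlation with the libraries of a basal A line ran from 0.792 for HCC1806 to 0.829 for BT-20. These correlations are across genes, which are not independent replicates.

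Levels are given as CPM, a gene's count scaled to a common library total with TMM, and are compared between lines and not between genes. Basal A levels are the lowest, median and highest of the 21 libraries, in that order. Two-sided edgeR quasi-likelihood tests took the library as the unit, with the contrast MDA-MB-453 minus the mean of the 7 basal A lines, and a call needed a Benjamini-Hochberg adjusted p under 0.05 and a log2 fold change of at least 1 in size. Of 18354 genes tested, 3601 were higher in MDA-MB-453 (19.6%) and 3025 lower (16.5%), so 36.1% differed in either direction. The median log2 fold change was 0.0683 over all tested genes. All 3 MDA-MB-453 libraries lay above all 21 basal A libraries for 1303 genes (7.1%) and below them for 1326 (7.22%). Among the 14158 protein-coding genes, 1085 were above all 21 (7.66%) and 1257 below (8.88%). Against single basal A lines, the number of genes called ran from 7176 for HCC1143 to 8942 for HCC70, and 567 genes were called higher against each of the 7 (3.09%) and 646 lower (3.52%). In bulk libraries of a line, fewer cells with a transcript and less of it per cell cannot be told apart.

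A stricter edgeR test summed the 3 libraries of each line and measured the spread among the 7 basal A sums. MDA-MB-453 was assumed to vary as they do. Of 27482 genes, 44 were higher (0.16%) and 7 lower (0.0255%) by edgeR with adjusted p under 0.05. At unadjusted p under 0.05 these numbers were 860 (3.13%) and 1070 (3.89%). DESeq2 on the same sums called 118 higher and 658 lower. Without HCC1143 there were 19 higher and 3 lower, without HCC1937 25 and 3, and without MDA-MB-468 18 and 2. Without HCC1187 there were 4 lower, and without HCC1806 3 lower. All 44 and all 7 were also called over libraries, 0.24% and 0.0381% of the 18354 genes there. They lay outside the 21 basal A libraries, and all were called in the same direction against MDA-MB-468 alone, the line in the same medium. That line is 1 of the 7 used to select these genes, and the MDA-MB-453 libraries are the same, so this is no separate check. None of the basal B lines of the series was above MDA-MB-453 for the 44 or below it for the 7. An exact permutation test of 1 line against 7 cannot go below p = 0.125.

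Among the genes furthest above the basal A lines were a transcription factor, a growth factor receptor, several transporters and a breast differentiation antigen, and among the furthest below were metabolic enzymes. The promoters of 4 of them are shown as reference sequence, 2 from each side, and they differ in CG content. Whether promoter sequence bears on the levels was not tested. They run from 250 bases before to 50 after the RefSeq start, in GRCh38.p14, 5′ to 3′, with CG dinucleotides in capitals. ABCC11 (chr16:48247490-48247789, minus strand) and FGFR4 (chr5:177086665-177086964, plus strand) were far higher in MDA-MB-453. ALDH1A3 (chr15:100879581-100879880, plus strand) and CBR1 (chr21:36069774-36070073, plus strand) were almost absent from it.
ABCC11 promoter: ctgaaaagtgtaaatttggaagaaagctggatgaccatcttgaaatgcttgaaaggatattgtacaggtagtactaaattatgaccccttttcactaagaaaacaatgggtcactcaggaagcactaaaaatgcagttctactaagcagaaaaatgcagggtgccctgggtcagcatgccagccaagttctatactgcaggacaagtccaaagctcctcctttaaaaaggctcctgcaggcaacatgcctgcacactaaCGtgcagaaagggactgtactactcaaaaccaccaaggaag
FGFR4 promoter: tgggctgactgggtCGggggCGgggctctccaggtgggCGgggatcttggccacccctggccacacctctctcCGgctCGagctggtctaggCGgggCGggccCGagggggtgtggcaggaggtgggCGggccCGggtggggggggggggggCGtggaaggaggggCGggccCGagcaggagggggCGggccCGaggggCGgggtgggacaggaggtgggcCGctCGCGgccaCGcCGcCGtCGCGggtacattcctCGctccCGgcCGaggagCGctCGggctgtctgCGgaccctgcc
ALDH1A3 promoter: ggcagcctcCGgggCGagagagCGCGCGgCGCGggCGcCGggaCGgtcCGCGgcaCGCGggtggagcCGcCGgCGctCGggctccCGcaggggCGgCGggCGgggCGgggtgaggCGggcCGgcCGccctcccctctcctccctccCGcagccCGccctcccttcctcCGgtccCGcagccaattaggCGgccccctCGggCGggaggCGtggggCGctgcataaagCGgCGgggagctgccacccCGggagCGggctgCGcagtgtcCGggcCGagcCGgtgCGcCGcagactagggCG
CBR1 promoter: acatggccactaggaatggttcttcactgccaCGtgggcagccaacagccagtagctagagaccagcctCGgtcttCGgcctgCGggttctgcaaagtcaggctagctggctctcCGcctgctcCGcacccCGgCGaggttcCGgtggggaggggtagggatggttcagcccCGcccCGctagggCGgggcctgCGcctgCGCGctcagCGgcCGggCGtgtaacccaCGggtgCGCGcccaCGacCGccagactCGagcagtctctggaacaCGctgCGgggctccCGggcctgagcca
The ABCC11 window holds 1 CG dinucleotide and 43.7% G and C. The FGFR4 window holds 30 CG dinucleotides (78.7% G and C), the ALDH1A3 window 46 (81.7%) and the CBR1 window 27 (69.3%). Of the 44 genes that were higher over line sums, 31 were protein-coding and 27 of these had a promoter in the RefSeq table. Their median was 24 CG dinucleotides, and 22.2% of them held fewer than 5, against a median of 25 and 8.91% over the 11154 tested protein-coding genes with a promoter. The 6 matched genes of the 7 lower ones had a median of 29.5, and none held fewer than 5. Among genes higher in the fit over libraries, 1916 had a promoter, of which 16.4% held fewer than 5, and among 2013 lower genes 9.19% did. The AP-2 motif GCCNNNGGC, which reads the same on both strands, was found in 29.6% of the higher genes' promoters, 33.5% of the lower genes' and 31.2% of all. The forkhead motif TGTTTAC was in 2.87% of the higher genes' promoters on either strand and in 2.3% of all. Neither motif contains the other.

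TFAP2B, an AP-2 transcription factor (chr6:50818723-50847613, GRCh38), had 147, 196 and 177 CPM in MDA-MB-453, against 0, 0.451 and 3.24 CPM in the basal A libraries. The groups did not overlap. Its log2 fold change was 8.35 ± 0.16 (SE, edgeR adjusted p = 4.7e-26), and 7.70 over line sums (adjusted p = 0.0092). ANKRD30A (chr10:37125788-37384111), which encodes the breast differentiation antigen NY-BR-1, had 569, 714 and 612 CPM, against 0.431, 1.83 and 7.70 CPM in basal A libraries. No basal A library came near the lowest MDA-MB-453 library. The log2 fold change was 8.30 ± 0.10 (SE, edgeR adjusted p = 2.4e-30) and 7.88 over line sums (adjusted p = 0.0014).

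FGFR4 (chr5:177086886-177098144), a receptor for fibroblast growth factors, had 858, 704 and 814 CPM in MDA-MB-453, against 1.28, 3.54 and 9.08 CPM in the basal A lines. The highest basal A line was HCC1806 at 8.15 CPM, and no basal A library came near MDA-MB-453. Its log2 fold change was 7.75 ± 0.092 (SE, edgeR adjusted p = 1.6e-30), and 7.32 over line sums (adjusted p = 0.0014). CA12, a carbonic anhydrase of the cell surface (chr15:63321378-63382161), had 507, 504 and 535 CPM, against 0.323, 1.55 and 10.1 CPM. ABCC11 (chr16:48166910-48247568), the transporter that loads apocrine secretion, had 288, 240 and 273 CPM, against 0.16, 1.46 and 6.68 CPM in basal A libraries. Both were without overlap, with log2 fold changes of 8.14 and 7.37 and edgeR adjusted p over line sums of 0.025 and 0.013.

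The other genes named by the same rule were higher by log2 fold changes of 6.49 to 7.99 and had edgeR adjusted p over line sums between 0.0028 and 0.034. They are the aldo-keto reductase AKR7A3, the glutamate transporter SLC1A7, LRRC31, the kinesin KIF5C, the monocarboxylate transporter family member SLC16A6 and the adenylyl cyclase ADCY2. SLC16A6 (chr17:68267026-68291267) had 307, 364 and 351 CPM in MDA-MB-453, against 0.592, 3.2 and 15.2 CPM in basal A lines. ADCY2 (chr5:7396208-7830081) had 156, 160 and 163 CPM, against 0.296, 1.76 and 4.99 CPM. All 3 MDA-MB-453 libraries stood above all 21 basal A libraries for each of these 6 genes.

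On the lower side 5 genes met the same rule, and all but ROCK2 were below 4 CPM in every MDA-MB-453 library. ALDH1A3, a retinaldehyde dehydrogenase (chr15:100877714-100916626), had 0.938, 0.503 and 1.60 CPM in MDA-MB-453, against 213, 627 and 2379 CPM in basal A lines. The log2 fold change was −9.26 ± 0.25 (SE, edgeR adjusted p = 1.4e-22), and −9.75 over line sums (adjusted p = 0.042). PSAT1, the transaminase of serine synthesis (chr9:78297143-78330093), had 0.750, 0.168 and 0.133 CPM, which is 6 counts in all, against 74.9, 153 and 334 CPM in basal A libraries. CBR1, a carbonyl reductase (chr21:36069941-36073166), had 0.188, 0.336 and 0.399 CPM, also 6 counts, against 54.4, 115 and 199.8 CPM. Neither gene overlapped between the groups, and edgeR adjusted p over line sums was 0.021 for both.

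YBX3, a cold-shock domain RNA-binding protein (chr12:10699089-10723312), had 1.5, 3.19 and 1.86 CPM in MDA-MB-453, against 153, 244 and 310.4 CPM in basal A libraries. ROCK2, a kinase that acts downstream of RhoA on actomyosin contraction (chr2:11179761-11348330), had 12.6, 11.2 and 12.6 CPM, against 159, 281 and 432 CPM. Both fell without overlap, with log2 fold changes of −6.71 and −4.48 and edgeR adjusted p of 0.020 and 0.042 over line sums. TMEM101, a transmembrane protein gene (chr17:44011188-44023946), had 1 count in the 3 MDA-MB-453 libraries together, while the basal A libraries held 11, 22.1 and 41.6 CPM. The median basal A line was 376.7 times higher, with a 95% Poisson interval of 67.6 to 14880 that covers counting error only. It was the one protein-coding gene with at most 3 counts in MDA-MB-453 and at least 10 CPM in every basal A line.

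**Figure D1:**
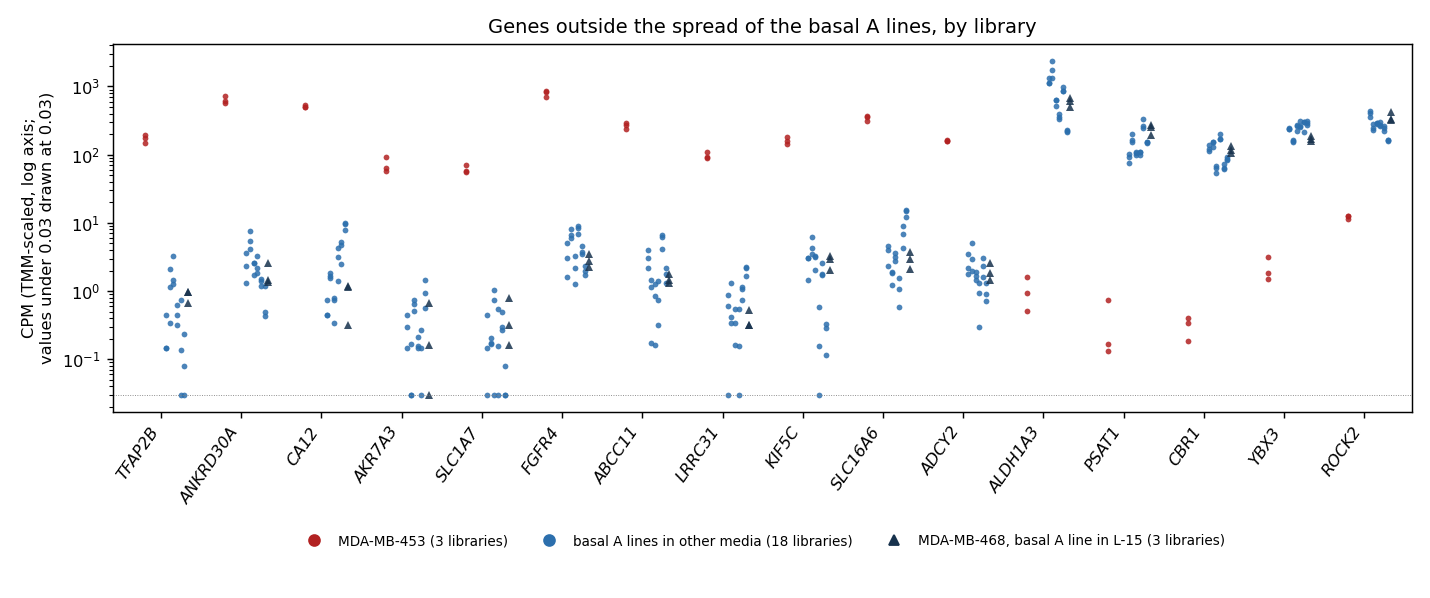
CPM of each library on a log axis for the 11 named genes that were higher and the 5 that were lower in MDA-MB-453, with its 3 libraries in red to the left of the 18 basal A libraries in other media (blue) and the 3 MDA-MB-468 libraries (dark triangles); values under 0.03 are drawn at 0.03. For every gene the red points lie apart from all 21 others.

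Several long noncoding RNAs were also beyond the spread of the basal A lines. AL354984.2 on chromosome 20 had 24.6, 23.5 and 26.5 CPM in MDA-MB-453, against 0, 0 and 0.208 CPM in basal A libraries. AL157387.1, which lies within ANKRD30A on the same strand of chromosome 10, so that reads of one could be counted for the other, had 54.2, 47.6 and 51.3 CPM, against 0, 0 and 1.04 CPM. GATA3-AS1, next to GATA3, had 36.6, 34.2 and 33.9 CPM, against 0, 0.165 and 0.735 CPM. Their edgeR adjusted p over line sums was 0.0092, 0.021 and 0.0028. The strand setting of the counting is not given in the sources used here, so reads of genes that overlap on opposite strands cannot be told apart. By class, 338 of 1016 tested lincRNA genes were higher in MDA-MB-453 (33.3%) and 116 lower (11.4%), against 17.5% and 18.2% of 14158 protein-coding genes. Other noncoding classes also had more genes higher than lower, with 27.3% and 9.75% of 1292 antisense genes, 57.7% and none of 26 misc_RNA genes, and 29.4% and 8.09% of 136 unprocessed pseudogenes. The protein-coding share of counts was lower in all MDA-MB-453 libraries than in any basal A library, as given above, and its part in these counts was not tested. The expression filter keeps a gene that reaches its minimum in the libraries of a single line. Genes that pass only through MDA-MB-453 can then only be higher, so the shares of these low-count classes are not read as a result. Over all genes, 54.3% of calls were higher with this filter and 45.5% with a minimum count of 50. No lncRNA met the same rule on the lower side.

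Most hormone receptor and luminal transcription factor genes were higher in MDA-MB-453. Of 7 hormone receptor genes tested, 5 rose and 1 fell, with a median log2 fold change of 1.80. ESR1, the estrogen receptor, was the member that fell, with 3, 1.68 and 0.798 CPM in MDA-MB-453 against 4, 11 and 23.2 CPM (log2 fold change −2.57, edgeR adjusted p = 9.6e-11). GHR, the growth hormone receptor, rose by 4.21 on the log2 scale and PRLR, the prolactin receptor, by 2.74. PRLR reached 93.7 CPM in the highest basal A library and so overlapped with the 78.4 to 105 CPM of MDA-MB-453. Against MDA-MB-468, 3 of the 7 genes were higher and 1 lower.

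Of 14 luminal transcription factors, 10 rose and 1 fell, the median log2 fold change was 3.60, and 8 were above all basal A libraries. Among all tested genes, 19.6% were higher, 16.5% lower and 7.1% above all basal A libraries. FOXA1, a forkhead factor that opens chromatin for nuclear receptors, had 304, 438 and 439 CPM in MDA-MB-453, against 1.83, 18.6 and 55.2 CPM in basal A lines. GATA3 had 105, 137 and 144 CPM, against 0.688, 6.68 and 22.7 CPM. Both were separate from every basal A library, with log2 fold changes of 4.70 and 4.30 and edgeR adjusted p of 3.2e-24 and 1.2e-19. XBP1, a factor of the secretory pathway and the unfolded protein response, had 3502, 3176 and 3340 CPM, against 67.5, 151 and 319.7 CPM. XBP1 and TFAP2B were the 2 members that also passed over line sums, XBP1 with adjusted p = 0.035 by edgeR. SPDEF, an ETS factor of secretory cells, had 206, 157 and 187 CPM in MDA-MB-453, against 0, 0.511 and 39.4 CPM, and its highest basal A values were those of MDA-MB-468. CREB3L4 rose by 4.32, TBX3 by 4.18 and TRPS1 by 3.02 on the log2 scale. ELF3, an epithelial ETS factor, was the member that fell, by 2.17. Against MDA-MB-468, 8 of the 14 were higher and 3 lower.

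Luminal secretory and surface genes were mixed. Of 16 tested, 6 rose, 2 fell and 8 met neither call, with a median log2 fold change of 0.209. AGR2, a disulfide isomerase of secretory cells, had 724, 570 and 581 CPM in MDA-MB-453, against 0.295, 6.41 and 328 CPM in basal A lines, and HCC70 was the highest of them. MLPH, which links secretory granules to myosin, rose by 3.74, KIAA1324 by 5.02 and ANKRD30A by 8.30 on the log2 scale. The simple keratins that mark luminal cells did not meet the call. KRT8 had 981, 883 and 805 CPM in MDA-MB-453 against 669, 1115 and 3905 CPM, and KRT18 had 684, 568.5 and 592 CPM against 243, 637 and 3116 CPM. Both lay inside the basal A range. MUC1, a mucin of the luminal surface, fell by 2.25 on the log2 scale. TFF1 had 1.31, 2.18 and 3.46 CPM in MDA-MB-453 and at most 0.165 CPM in a basal A library, and with TFF3 and SCGB2A2 it was too low to be tested over libraries.

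Of 18 apocrine genes tested, 9 rose and 2 fell, with a median log2 fold change of 1.10, and 6 were above all basal A libraries. The shares of all tested genes were 19.6% higher, 16.5% lower and 7.1% above all basal A libraries. CLCA2, a chloride channel regulator, had 3842, 4241 and 3930 CPM in MDA-MB-453, against 1.19, 3.73 and 67.5 CPM in basal A lines. Its log2 fold change of 9.57 ± 0.096 (SE, edgeR adjusted p = 5.8e-32) came with an adjusted p of 0.061 over line sums, where HCC1806, at 65.3 CPM, was the highest basal A line. PIP, the prolactin-induced protein of apocrine secretion, had 14.6, 14.8 and 10.6 CPM, against 0, 0 and 0.918 CPM. AZGP1, the secreted zinc-binding glycoprotein, had 896, 850 and 620 CPM against 0.295, 45.4 and 1674 CPM. It rose by 4.43 on the log2 scale against the basal A mean, yet its difference from MDA-MB-468 was 0.01 (edgeR adjusted p = 0.96). CRAT, the carnitine acetyltransferase, had 184, 206 and 213 CPM against 0, 2.06 and 23.7 CPM (log2 fold change 6.29, edgeR adjusted p = 5.7e-25). ALOX15B and APOD, which are apocrine markers in tumours, reached at most 0.665 CPM in a MDA-MB-453 library and were too low to be tested over libraries. Against MDA-MB-468, 10 of the 18 were higher and 3 lower.

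Genes known to respond to androgen in prostate cells mostly met no call. Of 21 tested, 2 rose, 6 fell and 13 met neither call, where 19.6% of all tested genes were higher and 16.5% lower. The median log2 fold change was −0.0869, and 4 were higher without BT-20 or without replicate 1 of MDA-MB-453. SORD, sorbitol dehydrogenase, rose by 2.72 and the ubiquitin ligase HERC3 by 2.23 on the log2 scale. STEAP4, a metalloreductase, had 1.69, 2.18 and 0.798 CPM in MDA-MB-453, against 1.25, 102 and 454 CPM in basal A lines (log2 fold change −5.22, edgeR adjusted p = 1.2e-17). NDRG1 fell by 2.50 and ZBTB10 by 2.90 on the log2 scale. FKBP5 and TMPRSS2 met no call, with log2 fold changes of −0.38 and −0.18.

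**Figure D2:**
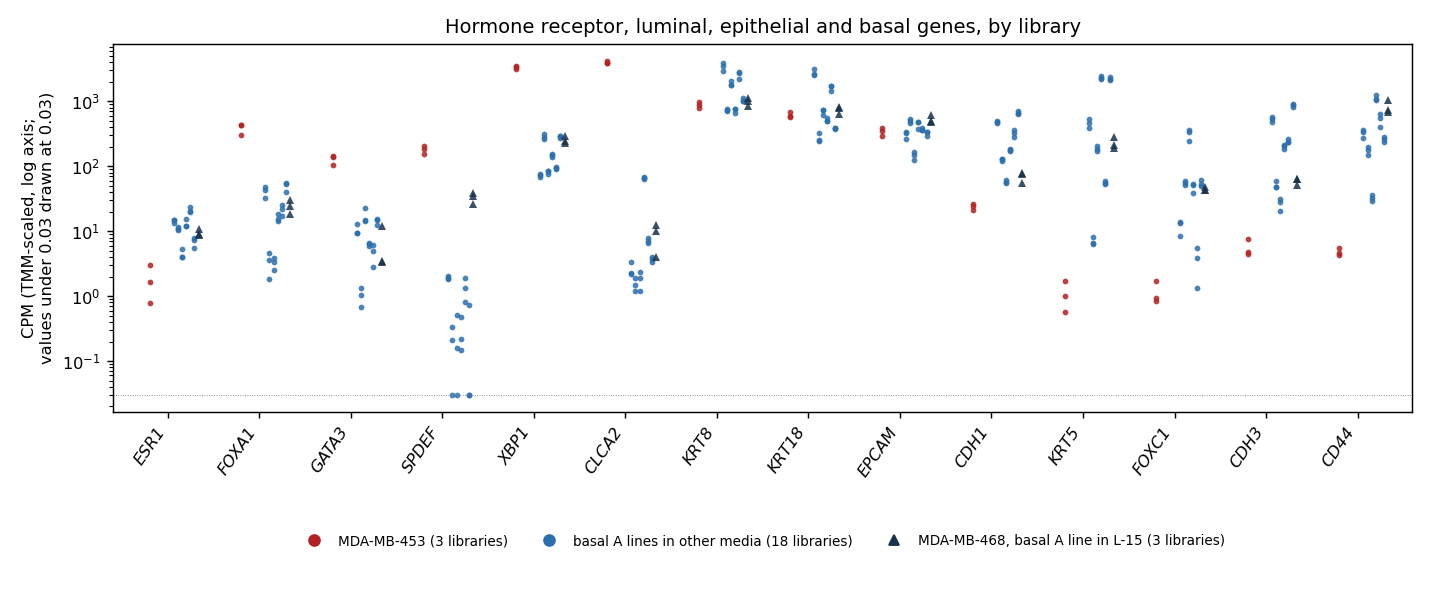
CPM of each library on a log axis for hormone receptor, luminal, epithelial and basal genes, with the 3 MDA-MB-453 libraries in red left of the basal A libraries, and MDA-MB-468 as dark triangles; values under 0.03 are drawn at 0.03. FOXA1, GATA3, SPDEF, XBP1 and CLCA2 are above, KRT8, KRT18 and EPCAM inside, ESR1, CDH1, KRT5, CDH3 and CD44 below the basal A range, and FOXC1 overlaps its lowest library.

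The ERBB family split by receptor. Of 11 ERBB receptor and ligand genes tested, 3 rose and 7 fell, with a median log2 fold change of −1.68. ERBB2 (HER2) had 505, 476 and 527 CPM in MDA-MB-453, against 24.2, 50.2 and 77.7 CPM in basal A libraries. No basal A library reached a level near it, and the log2 fold change was 3.30 ± 0.069 (SE, edgeR adjusted p = 5.2e-25), or 3.01 over line sums (adjusted p = 0.029). ERBB3, the partner that ERBB2 uses to reach PI3K, had 265, 310 and 299 CPM, against 47.4, 67.1 and 155 CPM, and ERBB4 had 26.8, 23.1 and 26.5 CPM, against 0.405, 1.94 and 5.62 CPM. EGFR was nearly absent, with 1.31, 2.35 and 3.32 CPM in MDA-MB-453 against 52.1, 170.5 and 2535 CPM, where the top values are those of MDA-MB-468. Its log2 fold change was −6.57 ± 0.27 (SE, edgeR adjusted p = 3.3e-18). The EGFR ligand TGFA had 1.88, 1.18 and 1.46 CPM, against 17.2, 81.2 and 132 CPM, and HBEGF fell by 4.56, EREG by 2.45, BTC by 2.32 and EGF by 1.68 on the log2 scale. NRG1, a ligand of ERBB3 and ERBB4, met no call (log2 fold change −0.90), and was called lower without HCC70 (−1.58). Against MDA-MB-468, 3 of the 11 were higher and 5 lower.

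Of 15 FGF, IGF and other receptor kinase genes tested, 3 rose and 6 fell, with a median log2 fold change of −0.922. MET, the receptor for hepatocyte growth factor, had 1.13, 1.01 and 1.33 CPM in MDA-MB-453, against 42.6, 291 and 732 CPM in basal A lines. The groups were far apart (log2 fold change −7.53 ± 0.19, SE, edgeR adjusted p = 5.0e-23), although the adjusted p over line sums was 0.19. FGFR2 fell by 3.64 and FGFR3 by 1.86 on the log2 scale while FGFR4 rose, and FGFR1 differed by −0.11 without a call. RET, a receptor for ligands of the GDNF family, had 10.9, 11.4 and 14.8 CPM, against 0, 0.668 and 3.10 CPM. The insulin receptor substrates moved in opposite directions, with IRS1 higher by 2.58 and IRS2 lower by 4.78 on the log2 scale. KIT fell by 2.66 and EPHA2 by 3.09. Of 15 PI3K pathway genes tested, 3 rose and 5 fell (median −0.240), where 19.6% of all tested genes were higher and 16.5% lower. PIK3R1, the regulatory subunit, had 234, 211 and 218 CPM in MDA-MB-453 against 27.6, 63.2 and 131 CPM, and AKT1 rose by 1.53 and RPS6KB1 by 1.34. SGK3, a kinase related to AKT, fell by 3.85, and INPP4B, a lipid phosphatase, by 2.00. GRB2, the adaptor that couples these receptors to RAS, had 1538, 1289 and 1425 CPM, against 71.1, 114 and 181 CPM, and passed over line sums (edgeR adjusted p = 0.020).

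**Figure D3:**
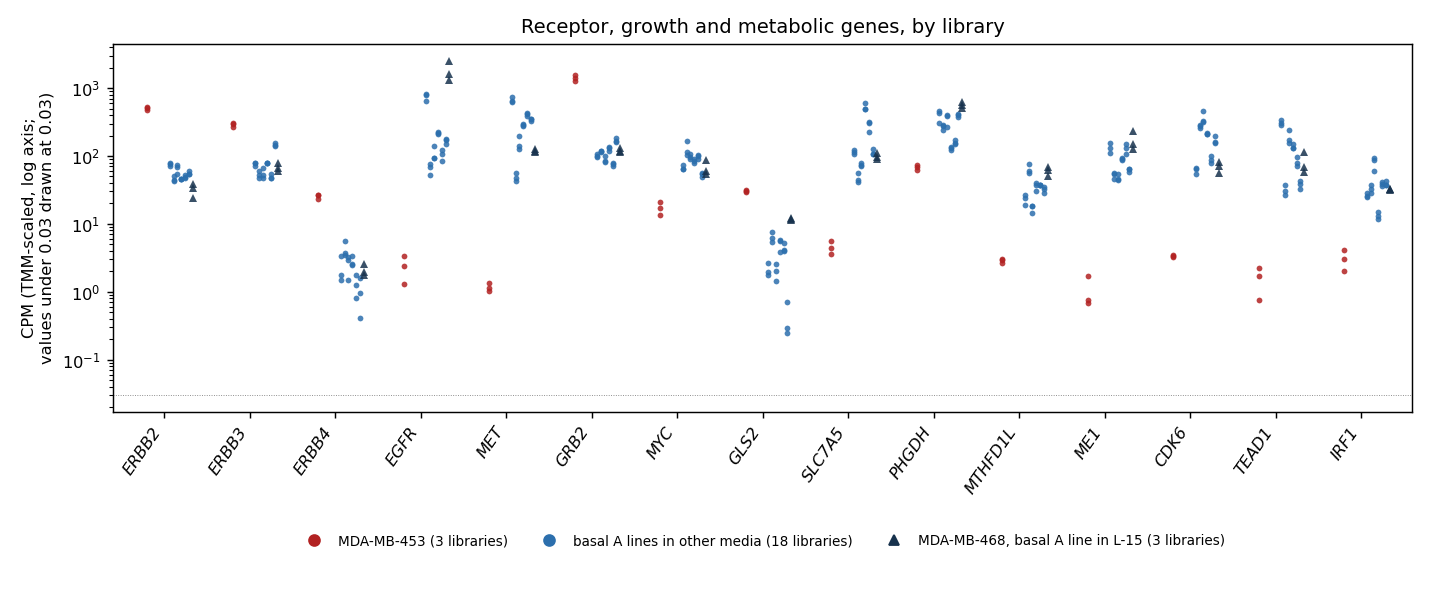
CPM of each library on a log axis for receptor, growth and metabolic genes, with the 3 MDA-MB-453 libraries in red left of the basal A libraries, and MDA-MB-468 as dark triangles; values under 0.03 would be drawn at 0.03. ERBB2, ERBB3, ERBB4, GRB2 and GLS2 are above every basal A library and the other 10 genes below.

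Basal keratins, factors and adhesion molecules were far lower in MDA-MB-453. Of 23 basal keratin and keratinocyte genes, 20 fell and none rose, the median log2 fold change was −4.76, and 11 lay below all 21 basal A libraries. Among all tested genes, 16.5% were lower and 7.22% lay below all 21. KRT5, the keratin of basal cells, had 0.563, 1.01 and 1.73 CPM in MDA-MB-453, against 6.32, 216 and 2486 CPM in basal A libraries, and HCC1143 was the lowest basal A line at 7.02 CPM. KRT15 fell by 6.03, KLK5, a skin protease, by 7.34 and the basal cadherin CDH3 by 4.76 on the log2 scale. CDH3 had 7.69, 4.53 and 4.79 CPM, against 20.8, 205 and 903 CPM. KRT14, KRT16, KRT17, KRT6A and KRT6B have near-identical copies, so their levels are uncertain, and each was called lower. TP63, the regulator of basal identity, had 5.63, 5.03 and 4.12 CPM, against 0.484, 2.75 and 405 CPM, and met no call (log2 fold change −0.35). None of the 23 passed over line sums, where the spread among basal A lines is wide. Against MDA-MB-468, 20 of the 23 were lower and 1 higher.

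Of 16 basal transcription factors tested, 2 rose and 10 fell, with a median log2 fold change of −2.50. FOXC1 had 1.69, 0.839 and 0.931 CPM in MDA-MB-453, against 1.33, 49.7 and 369 CPM, so the lowest basal A library, of HCC1937, lay inside the MDA-MB-453 range. ID4, a repressor of differentiation factors, had 0.563, 0.168 and 0.798 CPM, against 5.00, 88.4 and 178 CPM. KLF5 fell by 4.88 and SOX9 by 3.82 on the log2 scale. CEBPB was 10.5, 11.4 and 12.9 CPM in MDA-MB-453 and 37.6, 63.5 and 93.2 CPM in basal A lines. GRHL3 rose by 1.32 and NFIB by 1.05. Without BT-20 GRHL3 was at 0.97, under the limit of 1, and NFIB fell short of it in 7 of 39 alternatives, at 0.47 without HCC1806. Of 15 hemidesmosome and basal adhesion genes, 1 rose and 10 fell (median −2.06). CD44, the hyaluronan receptor, had 4.69, 4.36 and 5.45 CPM in MDA-MB-453, against 29.5, 335 and 1257 CPM. The laminin chains LAMA3 and LAMB3 fell by 4.30 and 5.58 and the integrin chain ITGB6 by 5.46 on the log2 scale. The integrin chain ITGB1 fell by 2.06, and the tetraspanin CD151 rose by 1.64.

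Of 27 epithelial junction genes tested, 4 rose and 5 fell, close to the shares of all tested genes, with a median log2 fold change of −0.00422. EPCAM had 395, 352 and 294 CPM in MDA-MB-453, against 127, 365 and 616 CPM in basal A lines, and ESRP1, a splicing factor of epithelial cells, 199, 211 and 232 CPM, against 137, 192 and 397 CPM. Both lay inside the basal A range. The exceptions were adhesion genes. CDH1, E-cadherin, had 21.2, 24.2 and 26.3 CPM in MDA-MB-453, against 54.4, 181 and 704 CPM (log2 fold change −2.99 ± 0.11, SE, edgeR adjusted p = 2.1e-19). The desmosome protein DSP had 35.8, 36.1 and 34.0 CPM, against 187, 783 and 2080 CPM. CLDN1 fell by 5.04 and the tight junction protein CGN by 4.29 on the log2 scale, whereas CLDN3 rose by 3.14. CDH1 and DSP lay below every basal A library.

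Of 21 mesenchymal genes tested, 7 rose and 10 fell (median 0.179), most of them at low levels. Without BT-20, HCC1143 or HCC1806, 6 fell, and without replicate 3 of MDA-MB-453 the median was −0.718, with 7 higher and 7 lower. SNAI2, a repressor of CDH1, had 0.563, 0.503 and 0.532 CPM in MDA-MB-453, against 0.161, 9.01 and 37.3 CPM, and ZEB1, another, met no call (0.38). VIM had 0.750, 1.51 and 12.4 CPM in MDA-MB-453, against 1.77, 34.1 and 1613 CPM. Replicate 3 of MDA-MB-453 stood apart for VIM and for SPARC, which had 0.375, 0.839 and 16.2 CPM. SPARC, a matrix protein, was called higher by 2.58 on the log2 scale with all 3 libraries, and without replicate 3 it was at −0.718 (edgeR adjusted p = 0.403). VIM was at −2.55, and at −4.78 without it. Why replicate 3 of MDA-MB-453 differed for these genes was not tested. Of 7 fibroblast markers tested, 5 rose and 1 fell (median 1.13), and their summed level was 26.3 to 30.9 CPM in MDA-MB-453 and 6.63 to 56.4 CPM in basal A libraries. Without replicate 1 of MDA-MB-453 2 of them were higher, and 3 without its replicate 2, HCC1806 or HCC70. COL1A1, a collagen of fibroblasts, had 7.5, 7.55 and 9.04 CPM in MDA-MB-453 against 0.406, 1.72 and 3.69 CPM. Of 6 endothelial markers 1 rose and none fell (median 0.0451), with sums of 7.71 to 11.6 and 3.11 to 128 CPM, and of 2 blood cell markers tested 1 rose and 1 fell (median −0.851), with sums of 6.65 to 9.38 and 1.18 to 37.8 CPM. Of the endothelial markers, 1 was lower without HCC1143, HCC1187, HCC1806, HCC70, MDA-MB-468 or replicate 1 of MDA-MB-453. Of the blood cell markers, 3 were tested and 2 were higher without replicate 1 of MDA-MB-453, replicate 2 of BT-20, replicate 1 or 3 of MDA-MB-468, or any single replicate of HCC1143 or HCC1187. PTPRC, the pan-leukocyte marker, had 7.13, 4.70 and 2.39 CPM in MDA-MB-453, against 0.551, 1.62 and 4.99 CPM. Whether other RNA had a part in these low levels was not tested.

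MYC, the transcription factor that drives growth and ribosome synthesis, was among the lower genes. It had 13.7, 17.1 and 21.1 CPM in MDA-MB-453, against 49.4, 87.7 and 166 CPM in basal A libraries, so that every basal A library was above. The log2 fold change was −2.23 ± 0.15 (SE, edgeR adjusted p = 3.3e-13), −1.94 against MDA-MB-468, and −2.48 over line sums (adjusted p = 0.34). Of 13 MYC network genes, 1 rose and 3 fell (median −0.558), where 19.6% of all tested genes were higher and 16.5% lower. MXD4, which competes with MYC for MAX, rose by 1.87, and MLXIP, which pairs with a MAX-like partner, fell by 1.52 on the log2 scale. Of 29 ribosome biogenesis genes tested, none rose and 13 fell, with a median log2 fold change of −0.979, and 14 lay below all basal A libraries. The share of all tested genes below all basal A libraries was 7.22%. FBL, the remaining member, was near 0 in all 8 lines and was not tested. TSR1, a factor of the small ribosomal subunit, had 59.9, 53.4 and 55 CPM in MDA-MB-453, against 121, 228 and 397 CPM. EBNA1BP2 had 84.8, 82.7 and 78.3 CPM, against 193, 240.1 and 363 CPM. None of the list passed over line sums. Against MDA-MB-468, none of the 29 was higher and 11 were lower.

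Of 34 nuclear genes tested of respiratory complex I, the NADH dehydrogenase of mitochondria, 2 rose and 1 fell, with a median log2 fold change of 0.334. NDUFB1 had 363, 305 and 238 CPM in MDA-MB-453, against 54.5, 116 and 241 CPM in basal A lines, and rose by 1.41 on the log2 scale. NDUFB8 was just past the call limit, and in 28 of 39 alternatives it fell short of it, at 0.818 to 0.988. With single lines or libraries left out, 1 or 2 genes of the list were higher and 0 to 2 lower. NDUFA3, NDUFA6 and NDUFS1 were near 0 in all 8 lines and were not tested, and their counts are not read as expression. NDUFS6 fell by 1.09, and without HCC1937 it was at −0.94, inside the limit.

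Glutamine genes were lower more often than higher. Of 20 tested, 3 rose and 9 fell (median −0.972), and 6 were below all basal A libraries. The shares of all tested genes were 19.6% higher, 16.5% lower and 7.22% below all basal A libraries. GLS2, the liver-type glutaminase, had 30.0, 29 and 31.1 CPM in MDA-MB-453, against 0.243, 3.98 and 12.3 CPM (log2 fold change 3.26, edgeR adjusted p = 1.5e-18). Its groups did not overlap. SLC7A5, which exchanges glutamine for leucine, had 3.56, 5.54 and 4.39 CPM, against 40.8, 108 and 604 CPM. SLC38A1, a glutamine importer, had 611, 689 and 731 CPM, against 150.3, 304 and 426 CPM. The main glutamine importer SLC1A5 met no call, with 185, 174 and 176 CPM against 81.3, 179 and 264 CPM. The cystine exchanger SLC7A11 fell by 3.72 and GLUL, glutamine synthetase, by 1.72 on the log2 scale. Media differ in added glutamine, and against MDA-MB-468, in the same medium, GLS2 was higher by 1.35 on the log2 scale, with 2 of the 20 genes higher and 10 lower.

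Serine and one-carbon genes were lower or met no call. Of 15 serine and one-carbon genes, none rose and 8 fell (median −1.10), and 6 were below all basal A libraries. Among all tested genes, 16.5% were lower and 7.22% below all basal A libraries. PHGDH, the first enzyme of serine synthesis, had 68.8, 73.5 and 62.5 CPM in MDA-MB-453, against 121, 308 and 616 CPM in basal A lines. PSAT1, the second, was almost absent as given above, and it also counts among the glutamine genes because it uses glutamate. PSPH, the third, fell by 1.09 on the log2 scale and overlapped; without MDA-MB-468 it was at −0.72 and not called. The mitochondrial folate enzymes MTHFD1L and ALDH1L2 fell by 3.60 and 3.84, and MTHFD2, with 451, 376 and 407 CPM against 213, 421 and 869 CPM, met no call. Against MDA-MB-468, 1 of the 15 was higher and 7 lower.

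Of 25 NRF2 and glutathione genes, 3 rose (1 without HCC1187) and 15 fell (median −1.75), with 10 below all basal A libraries. The share of all tested genes was 16.5% lower and 7.22% below all basal A libraries. ME1, the cytosolic malic enzyme, had 0.750, 0.671 and 1.73 CPM in MDA-MB-453, against 44.6, 91.1 and 230.0 CPM in basal A lines (log2 fold change −6.28, edgeR adjusted p = 2.9e-18, and 0.078 over line sums). AKR1B10 fell by 7.12, heme oxygenase HMOX1 by 4.12 and the glutamate-cysteine ligase subunits GCLC and GCLM by 1.75 and 1.79. NQO1, a standard NRF2 target, met no call (0.69) and was called higher without BT-20 (1.09). Of 22 lipid and sterol synthesis genes, 5 rose and 3 fell (median 0.122). This is close to the shares of all tested genes, 19.6% higher and 16.5% lower. SREBF1 and ELOVL6 were among the 5, higher by 1.33 and 1.88 on the log2 scale. Without replicate 3 of MDA-MB-453 2 of this list were higher, and 3 without HCC1143. Of 22 fatty acid oxidation genes tested, none rose and 6 fell (median −0.577), and 2 were higher without replicate 1 of MDA-MB-453 or without HCC1143. ACAA2, the thiolase of the last step, had 1.88, 1.51 and 2.92 CPM in MDA-MB-453, against 29.1, 37.7 and 168 CPM, and ACADM fell by 2.90 and CPT1A by 1.99 on the log2 scale.

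Immune-related lists held no member that rose. Of 17 interferon-stimulated genes tested, 11 fell (median −1.81). MX1, an antiviral GTPase, had 3.56, 4.36 and 3.32 CPM in MDA-MB-453, against 13.7, 120.1 and 874 CPM in basal A lines. The transcription factor IRF1 had 4.13, 3.02 and 2.00 CPM, against 11.7, 32.7 and 92.5 CPM. Of 18 NF-kB and cytokine genes tested, 9 fell (median −1.31). REL had 1.5, 4.53 and 3.72 CPM in MDA-MB-453, against 15.8, 22.8 and 32.7 CPM, and BIRC3, an inhibitor of apoptosis, fell by 4.04 on the log2 scale. Of 12 antigen presentation genes tested, 7 fell (median −2.23). These HLA genes are polymorphic and near-identical, and HLA-E, TAP1, PSMB8 and PSMB9 were near 0 in all 8 lines, so levels of that list are uncertain. Against MDA-MB-468, the interferon list had 3 genes higher and 7 lower, and the NF-kB list 1 higher and 9 lower.

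Of 14 YAP target and pathway genes, 1 rose and 7 fell (median −1.09). TEAD1, the DNA-binding partner of YAP, had 0.750, 1.68 and 2.26 CPM in MDA-MB-453, against 26.5, 95.4 and 333 CPM in basal A lines. WWTR1, which encodes the YAP paralog TAZ, fell by 2.64 on the log2 scale and YAP1 met no call (−0.35). Of 30 cell cycle genes, 1 rose and 9 fell (median −0.551). CDK6, a kinase that phosphorylates RB1 in the first gap phase, had 3.38, 3.19 and 3.46 CPM in MDA-MB-453, against 53.5, 158 and 467 CPM. CCNE1, cyclin E, had 6.19, 9.23 and 6.78 CPM, against 22.7, 43.2 and 107 CPM. RB1 had 120.4, 141 and 148 CPM, against 0.484, 71.0 and 179 CPM, and its lowest basal A libraries were those of MDA-MB-468. RB1 was higher by 1.75 on the log2 scale, and by 0.91, under the limit, without MDA-MB-468. The proliferation genes MKI67 and TOP2A fell by 1.28 and 1.48. CCND1, cyclin D1, lay inside the basal A range with 426, 400.5 and 393 CPM against 139, 382 and 3609 CPM.

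**Figure D4:**
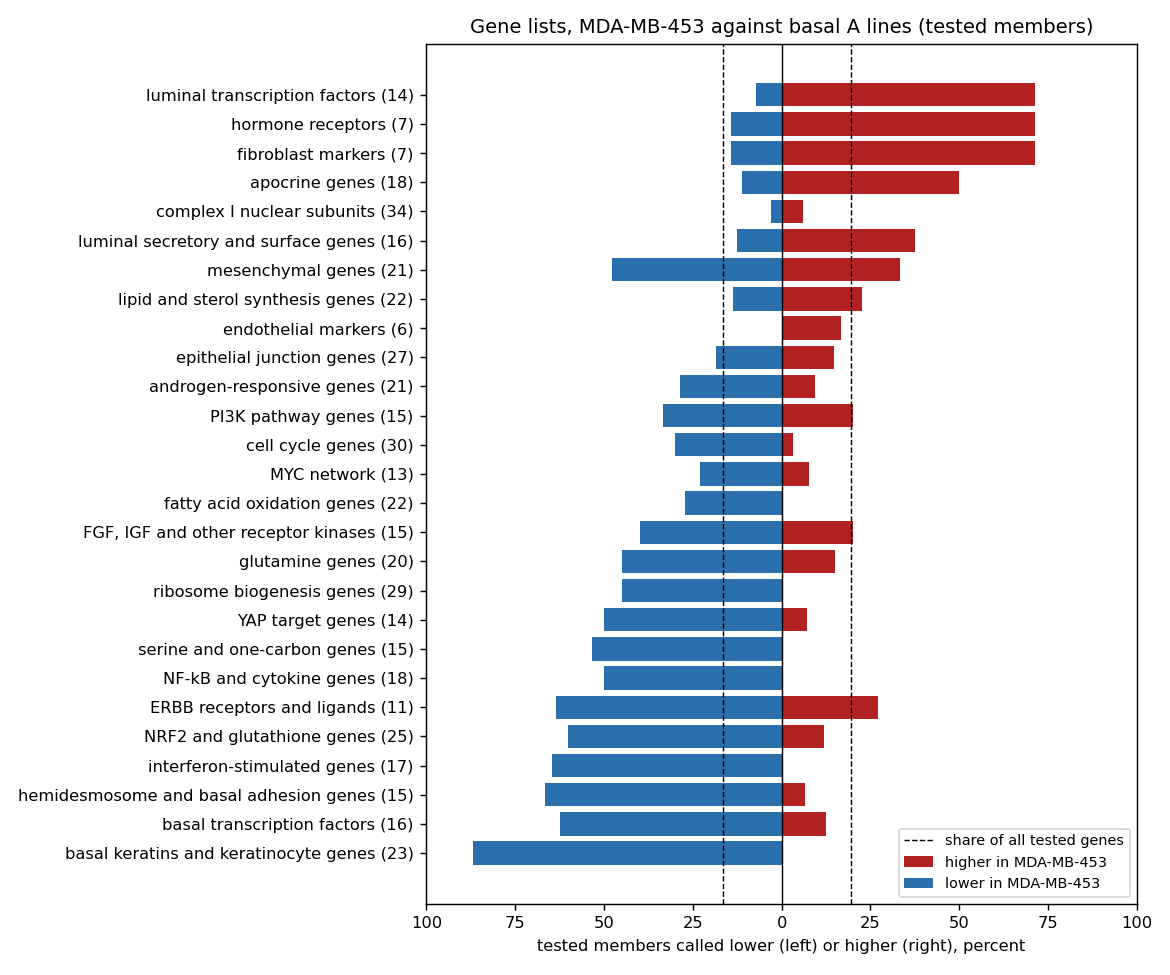
Percent of the tested members of each gene list called lower (left, blue) or higher (right, red) in MDA-MB-453 against basal A lines, ordered by median log2 fold change, with the number tested in parentheses. Dashed lines mark the share of all tested genes, 16.5% lower and 19.6% higher, and antigen presentation genes and blood cell markers are not drawn.

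Genes that lie together were examined around the receptors and MYC. Of 22 tested protein-coding genes within 500 kb of ERBB2 on chromosome 17, 9 were higher and 2 lower, and 6 were above all basal A libraries, with a median log2 fold change of 0.283. Over all tested protein-coding genes, 17.5% were higher, 18.2% lower and 7.66% above all basal A libraries. MIEN1 overlaps the end of ERBB2 on the opposite strand, so reads of ERBB2 could be counted for it. It had 43.9, 46.6 and 41.4 CPM in MDA-MB-453, against 3.24, 8.57 and 15.1 CPM in basal A lines. GRB7, an adaptor gene just beyond MIEN1, had 31.7, 37.2 and 42.5 CPM, against 2.90, 10.1 and 16.3 CPM. ORMDL3 rose by 2.03, PGAP3 by 1.71 and STARD3 by 1.60 on the log2 scale. PGAP3 overlaps the start of ERBB2 on the opposite strand, so the same limit holds for it. Around FGFR4, 3 of 20 tested neighbours were higher and none lower (median −0.0804). MYC had 1 tested neighbour within this distance, and it was not called.

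Positions were then scanned in windows of 2 Mb, an alternative view chosen after the values had been seen. Of 704 windows with at least 8 tested protein-coding genes, 21 had a median log2 fold change above 1 and 46 below −1. Windows were ranked by the same fold changes whose calls are counted, so high counts in the outermost ones follow from the ranking. Over all tested protein-coding genes, 17.5% were higher, 18.2% lower and 7.66% above all 21 basal A libraries. The highest median, 1.83, was at 154 to 156 Mb of chromosome X, where 23 of 30 genes were higher, among them ATP6AP1 and VBP1. Chromosome 17 held the next ones, with 9 of 13 genes higher at 68 to 70 Mb (median 1.70), 27 of 44 at 74 to 76 Mb (median 1.66) and 5 of 8 at 66 to 68 Mb (median 1.65). The window at 74 to 76 Mb holds GRB2 and HID1, both higher over line sums, and 24 of its genes were above all 21 basal A libraries. SUMO2 there had 1283, 1127 and 1192 CPM in MDA-MB-453, against 166, 313 and 412 CPM, and KCTD2 had 179.7, 207 and 223 CPM, against 22.1, 33.2 and 62.4 CPM. ITGB4, UNC13D and TRIM47 in the same window were lower. The windows with the lowest medians were at 2 to 4 Mb of chromosome 18, where 8 of 10 genes were lower (median −2.17), and at 84 to 86 Mb of chromosome 15, where 8 of 9 were (median −2.03). On chromosome 9, 33 of 57 genes at 136 to 138 Mb were higher (median 1.22). Copy number was not measured here.

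**Figure D5:**
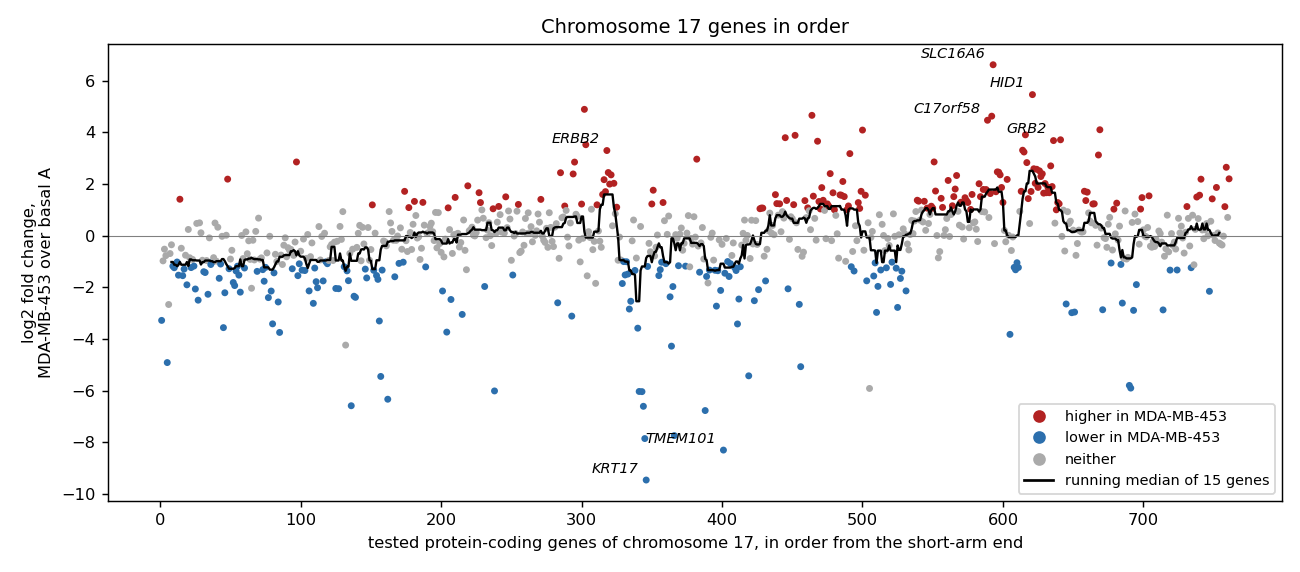
Log2 fold change, MDA-MB-453 over basal A, of the 761 tested protein-coding genes of chromosome 17 in order from the short-arm end, coloured by call, with a running median of 15 genes (line). The running median rises around ERBB2 and around HID1 and GRB2, and KRT17 and TMEM101 are among the lowest points.

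MDA-MB-468, the basal A line in the same medium, gave 3437 genes higher in MDA-MB-453 (18.7%) and 3749 lower (20.4%). This comparison uses the same MDA-MB-453 libraries as the main one, and MDA-MB-468 is 1 of the 7 lines there. ERBB2 was higher by 3.95, FGFR4 by 8.11 and XBP1 by 3.73 on the log2 scale, and EGFR was lower by 9.53, MET by 6.65 and ALDH1A3 by 9.11. Members that differed from the basal A mean but not from MDA-MB-468 included AZGP1, at a log2 difference of 0.01. SNAI2 was lower than the basal A mean, and its log2 difference from MDA-MB-468 was 1.33 without a call (edgeR adjusted p = 0.12).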

How the data were processed

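RNA of MDA-MB-453 and 7 basal A breast cancer lines was analysed, 3 libraries each. Per the labels' protocols, RNA was isolated with RNeasy, depleted with Ribo-Zero Gold and made with ScriptSeq v2 into libraries from 1000 ng. The submitters' processing notes name the tools bcl2fastq 2.20.0.422, FastQC, MultiQC, Trimmomatic, STAR and featureCounts, with GRCh38.p12. The annotation release, the strand setting and the treatment of multimapping reads were not given in the sources used here. Raw counts per gene were what the authors deposited, with no normalization. Of 64485 identifiers, 58320 (90.4%) matched GENCODE 29, and the 6165 others held 0.0785% of counts.

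Counts were fitted with edgeR 4.0.16 (R 4.3.3, limma 3.58.1) by line, with TMM, a minimum count of 10, a minimum total of 15 and Benjamini-Hochberg adjustment over all genes tested. The SE of a log2 fold change is its size divided by the square root of F. The same test was run on sums per line and, as alternatives, with DESeq2 1.42.0, other filters, single lines and libraries left out, and protein-coding genes alone. The scripts were tested on simulated data. The common CV was 0.1246 over libraries and 0.7662 over line sums, and libraries of 4587650 to 14653677 counts limit genes under a few CPM.

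The members, gene lists and tests were chosen with earlier results of these data known. Named genes are protein-coding, called in both fits, with the MDA-MB-453 libraries outside all basal A libraries and at least 50 CPM on the higher side, 10 a direction by fold change and 10 by the gap between libraries. On these 2 rankings 11 higher and 5 lower genes qualified, with 3 lncRNAs by fold change at 10 CPM or more, and genes of at most 3 counts in MDA-MB-453 with 10 CPM in every basal A line. Replicate numbers follow sequencing runs in the labels, except for HCC1143. Its libraries were in runs 1 and 2, and those of MDA-MB-453 and the other basal A lines in runs 3 to 5. For HCC1143, line and run therefore cannot be told apart. Deviations from line means were correlated between MDA-MB-453 and the other lines except HCC1143. The mean correlations were 0.167, 0.0777 and 0.115 within a number, with single values from −0.132 to 0.364. Between numbers they were −0.0925, −0.0323 and −0.0529. Centring each line on its own mean gives the between-number means the opposite sign, so these are not a separate result. HLA-E, TAP1, PSMB8, PSMB9, FBL, NDUFA3, NDUFA6 and NDUFS1 were near 0 in all lines and were not read as expression. Some genes of the lists are not reported here by name. Intervals cover counting error only.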

Additional observations from a re-analysis of the deposited data

Results flagged for a closer look

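Summed CPM over each of 29 gene lists and 5 measures of the libraries (total counts, genes with a count, and the shares of mitochondrial, short RNA and protein-coding counts) were compared among the 7 basal A lines. Of these 34 measures, 6, all of them list sums, had 1 basal A line far from the other 6 by Dixon's Q test. Its chance rate of about 1 in 20 assumes independent, normally distributed values. That was not checked for these sums, so 6 of 34 is not read as an excess. For hormone receptors, the sum was 392 CPM in MDA-MB-453, and HCC1187 stood apart among basal A lines at 457.7 CPM, against 135 to 224.1 CPM in the other 6. For androgen-responsive genes it was 1215 CPM in MDA-MB-453, and HCC70 stood apart at 3192 CPM, against 967.1 to 1922 CPM. For epithelial junction genes it was 1862 CPM in MDA-MB-453, and HCC70 stood apart at 5772 CPM, against 2471 to 3429 CPM. For mesenchymal genes it was 85.08 CPM in MDA-MB-453, and HCC1143 stood apart at 1654 CPM, against 78.54 to 652.5 CPM. For endothelial markers it was 9.525 CPM in MDA-MB-453, and BT-20 stood apart at 119.2 CPM, against 3.405 to 23.82 CPM. For blood cell markers it was 8.028 CPM in MDA-MB-453, and HCC70 stood apart at 34.35 CPM, against 3.082 to 13.31 CPM.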

How the results depend on the processing

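The counts over libraries kept within 1.5 times of 3601 higher and 3025 lower genes under DESeq2's size factors and test, all 45 libraries in the fit, leaving out any line (3219 to 3677 higher, 2930 to 3081 lower) and leaving out any library (3469 to 4086 higher, 3009 to 3166 lower). Without an expression filter they were 6896 higher and 3724 lower, and 64.9% of calls were higher, against 54.3% with the filter; the median log2 fold change was then 0.369. With a minimum count of 50 they were 1941 and 2321, and 45.5% were higher. Among protein-coding genes alone, an alternative added after seeing the data, they were 2656 higher and 2410 lower. With the replicate block, on lines of runs 3 to 5, they were 3582 and 3052 (3574 and 3049 without the block), and 3388 and 3669 against MDA-MB-468. The block changed no count by over 1.5 times. The counts over line sums, 44 and 7, depended on the tool and the lines. DESeq2's test called 118 higher and 658 lower, and without an expression filter edgeR called 14 lower. Leaving out 1 line gave 19 and 3 without HCC1143, 4 lower without HCC1187, 3 lower without HCC1806, 25 and 3 without HCC1937, and 18 and 2 without MDA-MB-468. Leaving out 1 replicate number from every line at once gave 33 to 42 higher and 5 to 8 lower. Of the genes named, SPARC changed direction, at −0.718 without replicate 3 of MDA-MB-453 (range over that left-out replicate −0.718 to 3.05). Beside the list counts that the report gives, leaving out 1 line or library moved these by over 1.5 times: luminal transcription factors, 2 lower without HCC1187; luminal secretory genes, 1 lower without BT-20, HCC1806 or HCC1937; basal transcription factors, 1 higher without BT-20, HCC1143 (or its replicate 3), HCC1806 or replicate 2 of MDA-MB-453; the MYC network, 2 higher without MDA-MB-468 or replicate 2 of BT-20; YAP genes, none higher without HCC70; and cell cycle genes, none higher without MDA-MB-468. The cause of these changes was not tested. Depth limits genes near 0 counts in MDA-MB-453, such as PSAT1, CBR1 and TMEM101, whose fold changes rest on 6 counts or fewer.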

Other observations

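Genes beside those almost absent from MDA-MB-453 were read after their values had been seen. GNAQ, a G protein subunit next to CEP78 and PSAT1 on chromosome 9, had 2.44, 1.51 and 1.33 CPM in MDA-MB-453, against 43.3, 99.7 and 237 CPM in basal A libraries. CEP78, which lies between GNAQ and PSAT1, was also called lower, at −1.32 on the log2 scale, and lay below all 21 basal A libraries. STYK1 beside YBX3 on chromosome 12 was at −4.08 and ETV6, on its other side, at −1.53, while MAGOHB (−0.90) and CREBL2 (0.25) were not called. PQLC3 beside ROCK2 on chromosome 2 was at −2.51, while PDIA6 (−0.73), E2F6 (−0.30) and GREB1 (0.25) were not called. Beyond PSAT1, TLE4 (−0.66) and TLE1 (−0.73) were not called. Around ALDH1A3, none of LINS1 (0.61), ASB7 (0.37), LRRK1 (−0.50) and CHSY1 (−0.56) was called. SETD4, which spans CBR1 on the opposite strand of chromosome 21, was at −0.27, and the CBR1 paralog CBR3 nearby was at 0.43, neither called. CHST3, a chondroitin sulfotransferase, was the remaining gene of the 7 lower over line sums, with 0, 0.336 and 0.532 CPM in MDA-MB-453, against 15.8, 35.9 and 57.2 CPM in basal A libraries. Beside TMEM101 on chromosome 17, NAGS was at −0.34 and G6PC3 at −0.10, neither called. LSM12 at −1.45 and MPP2 at −2.12, on either side of it, were called lower and lay below all 21 basal A libraries.

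Other genes higher over line sums, chosen after their values were seen, include ITPR1, a calcium channel of the endoplasmic reticulum, with 1071, 1064 and 1044 CPM in MDA-MB-453 against 8.27, 18.4 and 67.9 CPM in basal A libraries. LINC00993, which lies within ANKRD30A on the same strand of chromosome 10, so that reads of one could be counted for the other, had 109, 94.3 and 105 CPM, against 0, 0.235 and 1.25 CPM. ALB, serum albumin, had 68.7, 50.7 and 58.9 CPM, against 0.135, 0.645 and 2.08 CPM. None of the 3 overlapped between the groups.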
